A study of Saccharomyces cerevisiae with 56 samples.

Results

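The members described here are the double amino acid substitutions of the PDZ3 domain of PSD-95 in which 1 of the 2 changed residues is glycine G322. Members were chosen by comparing each deposited protein sequence with the wild-type row of its construct, numbering the 66 scored residues from R312 to I377, and keeping sequences with exactly 2 differences, 1 of them at G322, no stop and an error under 50. The table held 2780 such entries of 384696 in all, and of 338385 stop-free doubles, over 8 sets of measurements. Of the distinct doubles, 361 combine G322 with its neighbour L323 and are every possible combination of the 19 other amino acids at each residue, with 266 of them measured in all 8 sets. The remaining 3 combine G322 with R318. The error threshold removed no member, since the largest member error was 1.14, for G322A/L323Q in binding of PDZ3, and the only 8 entries above the threshold were the wild-type rows with an error of 100. G322 was singled out with the binding scores of its single substitutions known, so those scores are a description and not a finding.

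PDZ domains are small interaction modules that hold the carboxyl-terminal residues of partner proteins in a groove between a strand and a helix. The free carboxylate of the ligand is held by backbone amides of the carboxylate-binding loop, which in PSD-95 PDZ3 reads glycine, leucine, glycine and phenylalanine and is known as the GLGF loop. The first loop position varies widely among PDZ domains, whereas the second and the fourth are hydrophobic in most of them and pack into the core and the ligand pocket. G322 is the first residue of this loop, L323 the second, G324 the third and F325 the fourth, while R318 lies just before the loop in the sequence.

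The 4 constructs, which the labels call N, C, NC and PDZ3, were each measured with 2 growth assays in Saccharomyces cerevisiae strain BY4742. N, C and NC carry an extension at the amino end, the carboxyl end or both ends of the domain, and PDZ3 is the domain without them; the sequences of the extensions and of the binding partner were not in the labels. In bindingPCA, growth in methotrexate depends on a reporter enzyme rebuilt when the domain meets its partner, and so on both affinity and the amount of domain; in abundancePCA it depends on the amount of soluble domain. Each set came from 3 input libraries, 3 output libraries and 1 wild-type library, with competition over 5 generations at 30 °C in 400 mL. The deposited score is relative to the wild type at 0, with 1 error per variant over the merged cultures, so the values of single cultures and the read depth are unknown, and lower scores mean slower growth. The median nonsense variant, which marks loss of the signal, scored -1.48 for N, -1.10 for C, -0.891 for NC and -1.52 for PDZ3 in binding, and -0.901, -1.23, -1.07 and -1.17 in the same order in abundance. Scores of different sets therefore have different spans and are compared below through differences within a set. Errors after ± are the deposited standard errors, or their propagation through a difference.

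The loops written below are the 4 residues from G322 to F325, with capitals for every residue since each is an amino acid letter. The wild type is GLGF. The 3 doubles with the highest binding in N, NC and PDZ3 read PWGF, KWGF and AWGF. In PDZ3, AWGF scored 0.444 ± 0.454, so its place there is uncertain. Members with tyrosine at the second position, which fell most often in N and PDZ3, read for example VYGF and LYGF, and LGGF is the double that exchanges the letters of the first 2 positions.

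Alone, substitutions of G322 scored above the wild type in binding for 17 of 19 amino acids in N, 17 in C, 17 in NC and 14 in PDZ3. Their median scores were 0.241 in N, 0.0746 in C, 0.0593 in NC and 0.125 in PDZ3. G322L was the highest in N at 0.466 ± 0.051, and G322M in PDZ3 at 0.53 ± 0.15, while G322W was near or below the wild type in every construct and lowest in PDZ3, at -0.469 ± 0.11. In abundance the same singles had medians of -0.0908 in N, -0.162 in C, -0.0566 in NC and -0.433 in PDZ3. The branched and bulky residues were lowest there, with G322V at -1.08 ± 0.072 and G322I at -1.33 ± 0.13 in PDZ3, whereas the acidic G322D scored 0.0922 ± 0.055 and G322E 0.0134 ± 0.036. Binding scores at or above the wild type thus stood beside abundance scores below it for most amino acids at this residue.

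Alone, substitutions of L323 went the other way in binding, with medians of -1.30 in N, -0.581 in C, -0.346 in NC and -1.43 in PDZ3 and no score above the wild type in any of the 4 constructs. The mildest was L323W, at -0.0846 ± 0.027 in N, -0.0149 ± 0.0086 in C, -0.0216 ± 0.006 in NC and -0.155 ± 0.044 in PDZ3. Methionine, phenylalanine, tyrosine and cysteine followed it. Proline, glutamine and the charged residues were among the lowest.

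The members followed L323 more than G322. In binding they ran from -2.01 through a median of -1.26 to 0.604 in N, from -1.45 through -0.429 to 0.220 in C, from -1.17 through -0.235 to 0.110 in NC, and from -1.97 through -1.51 to 0.729 in PDZ3. The medians over all doubles of the same sets were -1.36 in N, -0.735 in C, -0.343 in NC and -1.48 in PDZ3. The members' median was above that of all doubles in C, by less in N and NC, and slightly below it in PDZ3. Counted on a scale where the wild type is 0 and the median nonsense variant -1, members at -0.75 or lower made up 59.1% in N, 32.3% in C, 24.4% in NC and 76.5% in PDZ3, against 61.9%, 44.9%, 28.7% and 76.2% of all doubles.

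The first question was what a G322 substitution does to a domain that already carries the L323 substitution. For each double the partner's single score was subtracted, and the difference was tested with a two-sided normal test on the deposited errors, with Benjamini-Hochberg adjustment over both ways round of every double in the set and a threshold of 0.05. Below, a value rose, fell, or lay above or below a sum where its adjusted p was under this threshold. This difference does not use the G322 single, but 19 doubles share each L323 single, so the calls are not independent of one another. The double still carries the G322 substitution, and G322 was singled out with its high binding singles known. That choice favours rises in binding over those of all doubles, so an excess of them is a description. Binding rose over the partner single in 56 of 350 members in N, 144 in C, 124 of 361 in NC and 32 in PDZ3. Over all doubles tested in the same way, the share that rose was 1.84% in N, 4.49% in C, 3.08% in NC and 1.93% in PDZ3, against 16.0%, 39.8%, 34.3% and 9.76% of members. Binding fell in 24 members in N, 32 in C, 15 in NC and 35 in PDZ3, which is 6.86%, 8.84%, 4.16% and 10.7% of them, with 34.7%, 49.7%, 41.2% and 34.2% over all doubles. On the scale with the median nonsense variant at -1, the median L323 single lay at -0.875 in N and -0.937 in PDZ3. A fall from most L323 singles therefore had little room in those 2 sets. The median difference of members was 0.0143 in N, 0.0658 in C, 0.0683 in NC and -0.00472 in PDZ3, with -0.371, -0.189, -0.120 and -0.285 over all doubles.

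The number of calls leans on the deposited errors, which do not cover the scatter of all variants that change only the DNA. These synonymous variants spread by 1.50 times their errors in N binding, 4.13 in C, 2.20 in NC and 1.33 in PDZ3, as a root mean square. By the median absolute deviation, scaled to a normal spread, the factors were 1.04, 1.11, 1.02 and 0.978. Most synonymous variants thus scattered about as their errors state, and a minority carried the root mean square up. With a constant added to every error so that synonymous variants spread as stated, chosen after seeing the data, 33 members rose in N, 24 in C, 64 in NC and 22 in PDZ3, which is 9.43%, 6.63%, 17.7% and 6.71% of members, with 0.966%, 0.898%, 1.55% and 1.21% over all doubles. With every error multiplied by the root mean square factor, 29, 9, 46 and 20 rose in the same order of constructs. That is 8.29%, 2.49%, 12.7% and 6.10% of members, with 0.655%, 0.143%, 0.440% and 1.01% over all doubles. The share of members stayed above that of all doubles in each of these counts, which the choice of G322 favours. The size of the C count depended most on the error used. In abundance, synonymous variants spread by 2.60 times their errors in N, 1.77 in C, 1.68 in NC and 3.10 in PDZ3, as a root mean square. By the median absolute deviation the factors were 1.29, 1.01, 1.25 and 1.41. The abundance calls below were not recounted with errors widened to match, so their numbers carry the same limit.

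Tryptophan at the second loop position gave the members that bound best. All 19 doubles with L323W were measured in N, C and NC and 18 in PDZ3, and they scored above the wild type in 17, 18, 17 and 13 cases. Their scores ran from -0.358 through a median of 0.341 to 0.604 in N, from -0.0357 through 0.117 to 0.220 in C, from -0.0213 through 0.0647 to 0.110 in NC, and from -0.971 through 0.238 to 0.729 in PDZ3. G322W/L323W, with tryptophan at both positions, was the lowest in N, in C, in NC and in PDZ3. G322I/L323W was the other one below the wild type in N, at -0.182, and G322Q/L323W in NC, at -0.0123. In PDZ3 the others below it were G322I, G322F, G322V and G322Y with L323W.

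Proline before tryptophan was the highest member in both N and PDZ3. G322P/L323W scored 0.604 ± 0.0887 in N, 0.185 ± 0.0204 in C, 0.0908 ± 0.0224 in NC and 0.729 ± 0.0997 in PDZ3. In PDZ3 the singles were 0.410 for G322P and -0.155 for L323W, so the double exceeded its partner by 0.884 ± 0.109. On the authors' errors the adjusted p of this difference was 1.01e-14. As a description, the double minus the sum of both singles was 0.375 ± 0.126 in N, 0.0850 ± 0.0301 in C, 0.0509 ± 0.0297 in NC and 0.474 ± 0.133 in PDZ3. Lysine came next. G322K/L323W scored 0.602 ± 0.133 in N, 0.220 ± 0.0341 in C, 0.103 ± 0.0279 in NC and 0.627 ± 0.0884 in PDZ3, and its difference from the L323W single in PDZ3 was 0.782 ± 0.0989. G322E/L323W in N had a score of 0.452 ± 0.105 although the G322E single was 0.000686, and it differed from the sum of its singles by 0.535 ± 0.143. Over the L323W doubles as a whole, 11 in N, 14 in C, 11 in NC and 11 in PDZ3 rose over the L323W single.

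Methionine and phenylalanine at the second position, both large hydrophobic residues, gave doubles near the wild type in the extended constructs. With L323M, 6 of 19 doubles in N, 8 of 19 in C, 10 of 19 in NC and 1 of 18 in PDZ3 scored above the wild type, and with L323F 5, 10, 9 and 0. The L323F single itself was below the wild type in every construct, at -0.362 in N, -0.11 in C, -0.0687 in NC and -0.501 in PDZ3. In C, 12 of 19 L323F doubles rose over it. G322K/L323F reached 0.239 ± 0.0742 in N, 0.0748 ± 0.0497 in C and 0.0576 ± 0.0393 in NC, against -0.341 ± 0.157 in PDZ3. G322P/L323M was the only double with L323M above the wild type in PDZ3, at 0.206 ± 0.0953.

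Doubles also rose on lower L323 singles. L323T scored -1.3 in N, -0.581 in C, -0.346 in NC and -1.54 in PDZ3, and 7, 16, 13 and 1 of its doubles rose over it. G322K/L323T reached -0.462 ± 0.12 in N and -0.0396 ± 0.0331 in C, which is 0.837 ± 0.124 and 0.541 ± 0.0343 above the L323T single. With L323V, 3 doubles rose in N, 13 in C, 12 in NC and none of 19 in PDZ3. With L323Q the counts were 5, 11, 10 and 3, and the L323Q single lay below the median nonsense variant in N, at -2.15 ± 0.08, and in PDZ3, at -1.97 ± 0.065. The gains on the L323Q background in those 2 sets are therefore measured from a score below the nonsense level. G322M/L323A had the largest gain that passed the test in N, with 0.0082 ± 0.164 for the double and -0.938 for the L323A single, a difference of 0.946 ± 0.166.

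Fewer doubles rose on the basic L323 backgrounds than on L323T in N, C and NC, but not in PDZ3. With arginine in place of L323, the 19 doubles ran from -1.23 to -0.711 in C and from -0.959 to -0.646 in NC, and 2 rose in N, 3 in C, 1 in NC and 2 in PDZ3. With lysine there, 0, 1, 1 and 1 rose in the same order. Over all doubles, 1.84% rose in N, 4.49% in C, 3.08% in NC and 1.93% in PDZ3. With at most 19 doubles on each background, 1 rise is already above every one of these shares, so the counts are not compared with them. With proline there, the lowest L323 single in C and NC, 4 rose in C and 6 in NC: G322I/L323P scored -0.529 ± 0.0456 in C, which is 0.755 ± 0.0494 above the L323P single, with an adjusted p of 3.11e-51. In NC, G322M/L323P scored -0.528 ± 0.108, a difference of 0.553 ± 0.11.

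Tyrosine at the second position went against its mild single score. The L323Y single was -0.387 ± 0.033 in N, -0.118 ± 0.01 in C, -0.0847 ± 0.0072 in NC and -0.533 ± 0.048 in PDZ3, close to the L323F single. Its doubles ran from -1.66 through a median of -0.818 to -0.0933 in N, and from -1.59 through -1.44 to -0.617 over the 15 measured in PDZ3. In N 11 of 19 fell below the L323Y single and none rose, and in PDZ3 14 of 15 fell and none rose. In C 6 fell and 2 rose, and in NC 1 fell and 2 rose. G322L/L323Y shows the contrast between constructs: it scored -0.881 ± 0.092 in N, -0.186 ± 0.0239 in C, -0.0821 ± 0.0265 in NC and -1.55 ± 0.0782 in PDZ3, and its difference from the L323Y single was -0.494 ± 0.0978, -0.0680 ± 0.0259, 0.00260 ± 0.0274 and -1.02 ± 0.0920, of which the NC value alone did not pass.

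The number of rises in binding also varied with the amino acid at the first loop position. Counting over its 19 partners in C, the rises were 14 for G322A, 13 each for G322K, G322L, G322M and G322V, and 12 each for G322P and G322R. G322K and G322R led in NC with 14 each, and G322P in N with 9 and in PDZ3 with 5. G322W stood at the other end, with no rise and 8 falls in C, and G322D had 1 rise and 7 falls there. Grouped by kind, the median difference from the partner in C was 0.200 for proline, 0.189 for the basic residues, 0.137 for the aliphatic ones, 0.0836 for the small ones, 0.0346 for the polar ones, 0.0145 for the aromatic ones and -0.0187 for the acidic ones. In N proline, at 0.319, and the basic residues, at 0.137, were again the highest groups and the aromatic residues, at -0.119, the lowest. In PDZ3 no group's median exceeded 0.098, that of proline.

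Tryptophan in place of G322 gave the most falls in binding in N and C, with 4 of 17 and 8 of 19 doubles. It shared the first place in PDZ3 with isoleucine and valine, with 4 each. In NC G322D had the most, with 5 of 19, and G322W had 3. As shares, all of these were below those over all doubles, 34.7% in N, 49.7% in C, 41.2% in NC and 34.2% in PDZ3. G322W/L323I scored -0.765 ± 0.064 in C, with an L323I single of -0.295, and fell by 0.470 ± 0.0648. In NC G322W/L323V scored -0.662 ± 0.0562, with -0.351 for L323V, and fell by 0.310 ± 0.0566. In PDZ3 G322I/L323F scored -1.67 ± 0.185, with -0.501 for L323F, and fell by 1.17 ± 0.191.

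Abundance fell far more often than it rose. Adding a G322 substitution lowered abundance relative to the partner single in 190 of 361 members in N, 167 in C, 47 of 358 in NC and 145 of 297 in PDZ3. The share that fell over all doubles was 36.1% in N, 37.2% in C, 24.5% in NC and 40.6% in PDZ3, against 52.6%, 46.0%, 13.1% and 48.8% of members. A closer comparison is with R312, I316, R318, F325 and D357 substitutions added to L323. Together they lowered abundance in 53.9% of doubles in N, 60.9% in C, 48.8% in NC and 41.7% in PDZ3. Their median differences were -0.482, -0.833, -0.443 and -0.397, against -0.199, -0.217, -0.0717 and -0.370 for G322. R318 alone lowered abundance in 31.5%, 31.7%, 6.09% and 35.1%. Abundance rose in 16 members in N, 4 in C, 0 in NC and 6 in PDZ3, with 3.47%, 1.08%, 1.09% and 3.96% over all doubles. By the same normal test, 4 members in NC rose at an unadjusted p under 0.05. Median scores of the members in abundance were -0.567 in N, -0.368 in C, -0.0997 in NC and -1.25 in PDZ3, with -0.582, -0.688, -0.186 and -1.12 over all doubles. NC kept the most signal: 88.8% of members there lay above -0.25 on the scale that puts the nonsense median at -1, against 58.1% of all doubles.

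Acidic residues in place of G322 made up most of the few rises in abundance. G322D and G322E gave 13 of the 16 in N, all 4 in C and 4 of the 6 in PDZ3, where they also gave 4 falls. The rises come to 4.43% of members in N, 1.10% in C and 2.02% in PDZ3, near or below the shares over all doubles given above. G322D/L323G scored -0.0773 ± 0.0493 in N and -0.436 ± 0.057 in PDZ3, with L323G singles of -0.445 and -1.08, and so rose by 0.367 ± 0.0498 and 0.642 ± 0.0595. In C, where the basic L323 singles were the least abundant, G322D/L323K scored -0.240 ± 0.112 with -0.791 for L323K, a rise of 0.551 ± 0.114, and G322E/L323R rose by 0.308 ± 0.067. The last 2 doubles put an acidic residue next to a basic one. G322D/L323K also rose in N, whereas in PDZ3 abundance it lay 0.375 ± 0.111 below the sum of its singles. An aromatic residue gave a single large case in PDZ3, G322W/L323E, at -0.188 ± 0.0495 with -0.786 for L323E and -0.931 for G322W, a rise of 0.597 ± 0.053 over L323E.

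Aliphatic residues in place of G322, the largest group with the polar ones in N and C, gave the largest number of falls. Of their doubles, 63 of 76 fell in N, 72 of 76 in C, 17 of 73 in NC and 48 of 65 in PDZ3. Basic residues gave 30 of 38, 28 of 38, 10 of 38 and 17 of 28. Aromatic ones gave 37 of 57, 32 of 57, 9 of 57 and 17 of 45. In NC the share that fell was higher for basic than for aliphatic residues. In C the falls numbered 19 of 19 for G322I, 18 each for G322L, G322M and G322R, and 17 for G322V, and none for G322D or G322E. The median difference from the partner single in C was -0.455 for aliphatic, -0.337 for basic, -0.291 for aromatic and 0.0519 for acidic residues. In N the same groups stood at -0.460, -0.367, -0.327 and 0.0775. In NC the largest falls that passed were on the L323K background: G322V/L323K scored -0.710 ± 0.0815, against an L323K single of -0.0757, and fell by 0.635 ± 0.0826, and G322I/L323K fell by 0.555 ± 0.0594.

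Both readouts were then set side by side for the same double. Binding rose and abundance fell relative to the same partner in 33 members in N, 78 in C, 16 in NC and 15 in PDZ3, which is 9.43%, 21.5%, 4.48% and 5.45% of those measured in both assays. Over all doubles measured in both, these shares were 0.317%, 0.695%, 0.412% and 0.338%. The choice of G322 favours the rises in binding here too. These counts use the deposited errors and were not redone with errors widened to the scatter of synonymous variants. Most rises of binding in C did not pass with those wider errors, so the 78 would be smaller there. Both readouts fell in 20, 13, 1 and 22 members, which is 5.71%, 3.59%, 0.280% and 8.00%, with 22.7%, 29.2%, 17.5% and 24.9% over all doubles. In C, 1 member rose in both, with 0.34% over all doubles, and 1 fell in binding and rose in abundance, with 0.139%. G322R/L323H is a case from C: binding was -0.525 ± 0.0296 with -0.812 for L323H, a rise of 0.288 ± 0.0331, and abundance was -1.09 ± 0.106 with -0.111 for L323H, a fall of 0.975 ± 0.108.

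The second question was whether doubles match the sum of their 2 singles. The difference between a double and that sum was tested in the same way, with adjustment over all doubles of a set. The sum holds the G322 single, the value with which the residue was singled out, so the binding counts are given beside their background and nothing is read from their direction. In binding, members lay above the sum in 9 of 350 in N, 62 in C, 60 of 361 in NC and 15 in PDZ3, with 19.7%, 20.5%, 10.6% and 39.5% over all doubles. They lay below it in 68, 63, 15 and 67, with 7.98%, 19.2%, 14.1% and 6.89% over all doubles. The median difference was -0.210 in N, -0.00782 in C, 0.0209 in NC and -0.154 in PDZ3 for members, with 0.0519, -0.0106, -0.0222 and 0.326 over all doubles.

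In abundance, members lay above the sum in 28 of 361 in N, 6 in C, 0 of 358 in NC and 60 of 297 in PDZ3, with 13.5%, 6.15%, 2.24% and 23.0% over all doubles. By the same test, 8 members in NC lay above it at an unadjusted p under 0.05. They lay below it in 56, 49, 9 and 27, with 8.28%, 15.3%, 13.1% and 11.8% over all doubles. In PDZ3, 54 of the 60 above the sum had a sum lower than the median nonsense score. Where the sum was not allowed below that level, 9 stayed above it.

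Deviations of single doubles follow, those in binding as a description for the same reason. G322V/L323Y lay below the sum in 6 of 8 sets: in N binding it scored -1.23 ± 0.192 against singles of 0.325 and -0.387, in PDZ3 binding -1.59 ± 0.189 against 0.0155 and -0.533. Its deviations were -1.17 ± 0.204 in N binding, -0.124 ± 0.0326 in C, -0.0977 ± 0.0377 in NC and -1.07 ± 0.209 in PDZ3. In abundance it deviated by -0.401 ± 0.0875 in N and -0.321 ± 0.104 in C, while NC and PDZ3 did not pass. Of the 10 members that deviated the same way in the most sets, 8 carry L323Y. G322R/L323H, another of them, was above the sum by 0.153 ± 0.0364 in C binding and 0.187 ± 0.029 in NC binding, and below it by 0.691 ± 0.194 in N binding and 0.527 ± 0.225 in PDZ3 binding. In abundance it was below the sum in N, C and NC, by 0.601 ± 0.121, 0.683 ± 0.117 and 0.241 ± 0.0724.

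The members measured most precisely in all 8 sets were 4 with leucine and 2 with serine in place of G322. G322S/L323V did not deviate from the sum in any of the 8 sets, with adjusted p from 0.068 to 0.868. G322L/L323V deviated in 5: binding was -1.40 ± 0.0965 in N, which is 0.726 ± 0.112 below the sum, and -0.150 ± 0.0162 in NC, which is 0.130 ± 0.0198 above it, and abundance was below the sum in N, C and PDZ3, by 0.404 ± 0.0527, 0.415 ± 0.0598 and 0.303 ± 0.0631. G322L/L323W differed from its sum in binding by 0.142 ± 0.0987 in N, 0.0183 ± 0.0257 in C, 0.0403 ± 0.0244 in NC and 0.186 ± 0.126 in PDZ3, none of which passed, and rose over the L323W single in each of them, by 0.609 ± 0.0843 in N, 0.161 ± 0.0202 in C, 0.112 ± 0.0225 in NC and 0.356 ± 0.108 in PDZ3. G322L/L323R lay below the sum by 0.558 ± 0.108 in N binding and 0.212 ± 0.0456 in C binding and above it by 0.260 ± 0.108 in PDZ3 binding. G322L/L323S and G322S/L323S differed at the first position alone. In N binding they scored -1.19 ± 0.0701 and -0.890 ± 0.0592, and only the serine double rose over the L323S single, by 0.369 ± 0.0650, with 0.0655 ± 0.0750 for the leucine double. In C only the leucine double rose, by 0.181 ± 0.0193, with 0.00800 ± 0.0208 for the serine double. Whether the 2 doubles differ from each other in these rises was not tested.

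G322L/L323G, picked after its values were seen because it exchanges the first 2 letters of the loop, was near the nonsense level in binding of N and PDZ3. It scored -1.49 ± 0.118 in N, -0.731 ± 0.0308 in C, -0.360 ± 0.0207 in NC and -1.80 ± 0.223 in PDZ3. Relative to the L323G single it rose in C by 0.216 ± 0.0330 and in NC by 0.201 ± 0.0220, while its differences of -0.00781 ± 0.122 in N and -0.451 ± 0.227 in PDZ3 did not pass.

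Other residues combined with L323 give the nearest comparison, since the partner single is the same. Substitutions of R312, I316, R318, F325 and D357 added to L323 raised binding in 3.79% of 1504 doubles in N, 7.13% of 1627 in C, 7.08% of 1667 in NC and 3.39% of 1269 in PDZ3, where G322 raised it in 16.0%, 39.9%, 34.4% and 9.76% with the R318 doubles left out. Those residues lowered binding in 24.9% in N, 49.5% in C, 42.7% in NC and 19.5% in PDZ3, where G322 lowered it in 6.86%, 8.86%, 4.17% and 10.7%. The median difference from the L323 single was -0.274, -0.267, -0.194 and -0.119 for those residues. For G324 added to F325, the following pair of the loop, binding rose in 2.01% in N, 3.11% in C, 2.82% in NC and 1.01% in PDZ3. Turned round, an L323 substitution added to a G322 single lowered binding in 84.3% of doubles in N, 87.8% in C, 80.6% in NC and 89.3% in PDZ3. These shares are descriptions, because each rests on only 19 partner singles and no test of the difference was run. The choice of G322 by its high binding singles also favours its rises.

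Deviations from the sum were then compared between constructs, with the error of both deviations. The binding deviations hold the G322 singles of both constructs, so their counts are given beside the background and nothing is read from their direction. In binding, C exceeded PDZ3 in 59 members and fell short in 15, with 5.34% and 32.1% over all doubles, and NC exceeded it in 66 and fell short in 12, with 6.17% and 35.9%. N exceeded PDZ3 in 9 of 320 and fell short in 8, with 0.812% and 5.15%. G322R/L323Y had a deviation of 0.00367 ± 0.0287 in NC, which did not pass, and lay below it by 1.32 ± 0.196 in PDZ3. In abundance, N was lower than PDZ3 in 52 of 297 and higher in 10, C was lower in 61 of 297 and higher in 9, and NC was lower in 56 of 294 and higher in 16. The shares over all doubles were 8.46% lower and 5.33% higher for N, 15.9% and 3.22% for C, and 21.6% and 6.96% for NC. With sums not allowed below the median nonsense score, these became 8 lower and 9 higher for N, 6 and 6 for C, and 6 and 15 for NC, so the excess of lower values did not hold. The 3 constructs share PDZ3 as the set they are compared with.

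Within a construct, the deviation in binding was set against that in abundance. It was higher in 8 of 350 members in N, 52 in C, 27 in NC and 5 of 275 in PDZ3, with 10.9%, 13.6%, 10.3% and 17.0% over all doubles. It was lower in 31, 13, 4 and 40, with 3.67%, 2.78%, 1.91% and 2.69%. With sums held at the nonsense score, 19 members differed in N and 5 in PDZ3 in either direction. G322I/L323P in C had the largest difference upward, with 0.681 ± 0.0554 in binding and -0.597 ± 0.135 in abundance. As a description across doubles, which share singles, the deviations of members correlated between C and NC binding with r = 0.579 over 360 doubles, and between N and PDZ3 binding with r = 0.426 over 320. The other pairs of binding sets were lower, at 0.179 for N and C, 0.208 for N and NC, 0.0649 for C and PDZ3 and 0.0890 for NC and PDZ3. Across assays, PDZ3 binding and N abundance had r = 0.427.

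The 3 doubles of G322 with R318 gave 4 entries in all, with errors from 0.0817 to 0.495. R318P/G322S scored -0.0383 ± 0.163 in C binding and 0.148 ± 0.495 in C abundance, R318A/G322C scored -0.0503 ± 0.0817 in NC binding, and R318Q/G322R scored -0.327 ± 0.216 in C abundance. None differed from the sum of its singles, with adjusted p from 0.873 to 0.965, nor from its R318 single.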

How the data were processed

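Per the file headers, the authors merged the 3 cultures of each construct and assay into 1 fitness score per variant, relative to the wild type at 0, and a standard error of that score. The authors also deposited a growth rate in other units, which is a straight line of the score within a set. Cutadapt and FastQC appear in the submitters' processing notes, with no settings. How scores and errors were estimated, the log base, read filters and read depth were not stated there or in the labels. Each set is 1 construct and 1 assay, taken from 7 of the 56 libraries.

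Sequences were compared without their last 2 letters. Every double was set against its partner single and against the sum of its singles by a two-sided normal test on propagated errors, with Benjamini-Hochberg adjustment over all doubles of the set (Python 3.11.15, numpy 2.4.6, pandas 2.3.3, scipy 1.17.1). Only the test against the sum was tried on simulated data. The simulated noise was drawn from the deposited errors, so the trial cannot show whether those errors are wide enough. Differences between sets used the errors of both deviations. Since cultures were merged, p-values measure only the deposited errors.

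Members and lists were chosen with earlier results of these data known. Named doubles were, per set, the 3 highest and 3 lowest past the threshold in each test, the 10 deviating the same way in the most sets, the 6 with the smallest mean error in all sets, and the 2 largest each way per difference between sets. Partners were grouped by amino acid, because nearly all members share L323.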

Additional observations from a re-analysis of the deposited data

Results flagged for a closer look

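Deviations from the sum of the singles that differed between constructs or between assays, by the normal test of the difference with adjustment over all doubles, are listed here with values. In binding, 17 members differed between N and PDZ3, 74 between C and PDZ3 and 78 between NC and PDZ3. In abundance the numbers were 62, 70 and 72 for the same constructs. Between binding and abundance, 39 members differed in N, 65 in C, 31 in NC and 45 in PDZ3.

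For the deviation in N minus that in PDZ3, binding gave -2.16 for G322W/L323A, -1.42 for G322K/L323K, 1.02 for G322P/L323Y and 0.928 for G322A/L323Y. For C minus PDZ3 in binding the values were -1.19 for G322W/L323A, -0.931 for G322I/L323Q, 1.42 for G322M/L323Y and 1.27 for G322A/L323Y. For NC minus PDZ3 in binding they were -1.12 for G322W/L323A, -0.717 for G322I/L323Q, 1.52 for G322M/L323Y and 1.32 for G322R/L323Y. G322W/L323A lay above its sum in PDZ3 by 1.10 ± 0.243 and below it in N by 1.06 ± 0.415.

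In abundance, N minus PDZ3 gave -1.52 for G322I/L323H, -1.30 for G322K/L323A, 0.902 for G322N/L323C and 0.656 for G322D/L323W. C minus PDZ3 gave -2.09 for G322I/L323Q, -2.05 for G322I/L323P, 0.971 for G322D/L323K and 0.858 for G322D/L323W. NC minus PDZ3 gave -1.83 for G322W/L323N, -1.67 for G322F/L323Q, 1.08 for G322N/L323C and 0.764 for G322P/L323Y.

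Binding minus abundance in N was -1.01 for G322W/L323I, -0.992 for G322L/L323R, 0.776 for G322K/L323T and 0.656 for G322E/L323E. In C it was -0.693 for G322D/L323K, -0.635 for G322H/L323H, 1.28 for G322I/L323P and 0.933 for G322I/L323V. In NC it was -0.374 for G322R/L323E, -0.343 for G322W/L323V, 0.601 for G322C/L323Q and 0.600 for G322V/L323K. In PDZ3 it was -1.44 for G322K/L323A, -1.32 for G322K/L323G, 0.854 for G322P/L323W and 0.829 for G322E/L323M.

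With sums not allowed below the median nonsense score, 15 of these 40 listed differences no longer passed and 1 changed sign. G322I/L323Q then gave -0.0588 for C minus PDZ3 and 0.155 for NC minus PDZ3 in binding, and -0.704 for C minus PDZ3 in abundance, none of which passed. G322W/L323A gave -1.73 for N, -0.768 for C and -0.700 for NC minus PDZ3 in binding, of which the NC value did not pass. For the difference from PDZ3 in abundance, G322I/L323H in N, G322W/L323N in NC and G322F/L323Q in NC gave -0.612, -0.832 and -0.137, none of which passed.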

How the results depend on the processing

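No paired analysis was possible because the deposited scores merge the cultures, and for the same reason no replicate could be left out. Of 42 counts of members, 40 moved by over 1.5 times with errors multiplied by 2, 11 of 26 with sums held at or above the median nonsense score, 8 of 16 with the product of growth rates as the expected value, 3 of 16 with scores centred on synonymous variants, 1 of 32 with only doubles of error under the set's median, and 0 of 10 with deviations scaled by the nonsense score. The cause of these moves was not tested, apart from wider errors calling fewer by construction. Constructs run N, C, NC, PDZ3 in the lists that follow.

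With errors multiplied by 2, the members above the partner numbered 10, 77, 57 and 6 in binding and 1, 0, 0 and 2 in abundance, and those below it 0, 3, 1 and 9 in binding and 75, 39, 4 and 61 in abundance. Those above the sum numbered 0, 16, 10 and 0 in binding and 1, 0, 0 and 16 in abundance, and those below it 3, 3, 0 and 5 in binding and 2, 1, 0 and 4 in abundance. For N, C and NC, 0, 4 and 3 members differed from PDZ3 in binding, and 1, 6 and 8 in abundance; between binding and abundance 1, 3, 0 and 0 differed. With the 2 settings from synonymous variants, chosen after seeing the data, members below the partner in binding numbered 6, 0, 0 and 27 with multiplied errors and 14, 1, 5 and 28 with the added term, and those above it are given with the first comparison, at 29, 9, 46 and 20, and 33, 24, 64 and 22.

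With sums held at the nonsense score, 42 in N and 41 in PDZ3 lay below the sum in binding and 2 in PDZ3 above it, and 15 in N and 9 in PDZ3 lay above it in abundance. The differences from PDZ3 then numbered 5 for N in binding and 17, 12 and 21 for N, C and NC in abundance, and those between assays 19 in N and 5 in PDZ3. With the product of growth rates, members above the sum in binding numbered 15 in N and 8 in PDZ3, those below it 27 in N, 36 in C and 36 in PDZ3, and in abundance 16 in N and 11 in PDZ3 lay above and 52 in PDZ3 below. Centring moved C binding to 99 above and 35 below, and NC abundance to 1 above. With only low-error doubles, 23 fell below the partner in PDZ3 binding.

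Of 90 named differences, 60 lost their call with errors multiplied by 2 and 30 kept it. Of 45 named deviations from the sum, 5 lost it with sums held at the nonsense score and 6 with the product. Among named doubles, 4 deviations reversed with sums held at the nonsense score: G322S/L323Q in N binding to -0.0290, G322I/L323Q in PDZ3 binding to -0.0178, and G322I/L323R and G322V/L323R in N abundance to -0.176 and -0.102. With the product, G322S/L323Q reversed to -0.0260 and G322I/L323Q to -0.0232.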
